A study of Mus musculus with 196 samples.

Results

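The mitotic spindle and kinetochore genes described here are 40 genes, listed by name, whose products start mitosis, attach chromosomes to the spindle, check that attachment and end the division. All 40 were present in the table, out of 25706 endogenous mouse genes, and the list was given by name, without a threshold on a measured value. The study asked how mouse germ cells leave mitosis and enter oogenesis and meiosis, with ZGLP1, a GATA-like zinc finger protein, as the factor under test. The assay was sequencing of the 3′ ends of mRNA from 1 ng of RNA, in 191 libraries of primordial germ cell-like cells (PGCLCs, germ cells made from embryonic stem cells) and in 3 libraries of embryonic germ cells. Depth ran from 877040 to 5196593 reads per library, so that 1 read was worth 0.192 to 1.14 RPM (reads per 1000000 reads assigned to genes), the unit of all levels given here. Nothing in the labels says that replicates came from separate cultures, so the spread behind the p-values may be technical. Unless stated otherwise, that spread was estimated for each gene over all groups of PGCLC libraries together, not from the libraries compared alone.

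All PGCLC lines carried the Prdm1-mVenus and Dppa3-ECFP reporters on a 129S1:C57BL/6 background, were grown on m220 feeder cells that make membrane-bound SCF, and were sorted for the Dppa3-ECFP reporter on the days compared. H18 is the parental line (27 libraries). Zko_E5 and Zko_G10 are clones with the genotype Zglp1-/- (26 libraries each), and Sko_B6 and Sko_F6 are clones with the genotype Stra8-/- (16 libraries each), where Stra8 encodes a retinoic acid-induced protein needed for meiotic entry. OE_A2 (64 libraries) carries a piggyBac Zglp1 transgene under a tetO promoter with EF1a-driven rtTA, so that doxycycline (Dox) switches it on, and OESko_A11 (16 libraries) carries such a transgene with Stra8-/-. Each of these last lines is a single clone, and Dox was never given to cells that lack it. Treatments are named as the labels code them: control, BMP2 (a bone morphogenetic protein), RA (retinoic acid), B2RA (BMP2 with RA), Dox, DoxRA, SerumMinus, SerumMinusWIN, SerumMinusWINDox, BMS and BMSDox, of which WIN and BMS are not spelled out. Groups were compared on culture day 9, mostly with 2 libraries per group, and the 2 clones of each knockout were weighted equally. The embryonic cells came from crosses of ICR and C57BL/6 mice and were E9.5 primordial germ cells (Dppa3-EGFP) and E14.5 and E15.5 oocytes (Ddx4-RFP), 1 library each.

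A cell enters mitosis when CDK1, released from inhibition by CDC25 phosphatases and helped by Polo and Aurora kinases, phosphorylates its targets. Kinetochores built on CENPA-containing centromeres then bind spindle microtubules, and BUB and MAD proteins hold back the anaphase-promoting complex, an enzyme that marks securin and cyclin B for destruction, until all chromosomes are attached. Female germ cells stop dividing by mitosis as they enter meiotic prophase, in which chromosomes pair for a long time without a spindle.

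The gatewayattL2R2 row of the vector is taken as the check of the induction. In OE_A2 on day 9 the vector sequence stood at 284 ± 172 RPM in control, 1292 ± 519 RPM with Dox and 3165 ± 2043 RPM with DoxRA (mean ± SD, n = 2). The 3′ tags do not check either knockout. All 40 genes were detected widely: each reached 10 RPM in at least 128 of the 191 PGCLC libraries, with Cdc25b the least often. A gene is called higher or lower below when limma's Benjamini-Hochberg adjusted p was under 0.05 and the change was at least 1 on the log2(RPM + 1) scale. A share of members is read as near that of all genes tested where the 2 shares differ by less than 1.5 times, and as above or below it otherwise. The shares of all genes come from this limma fit, and counts from alternative fits are not read against them. These are bulk libraries, in which fewer dividing cells and less RNA per dividing cell cannot be told apart.

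In OE_A2 given Dox with RA, the mitotic genes did not move as a block. Of the 40 members, 12 were lower and 4 were higher than in control, against 22.5% lower and 25.6% higher among the 9517 genes tested. The share of members lower, 12 of 40, was near that background, and the share higher was below it. With TMM scaling, which moved the median of all genes by -0.1, 13 were lower and 2 higher. The median change of the members was -0.01, beside 0.11 over all tested genes. The most negative changes were those of Pttg1 (-2.99), Bub3 (-2.78), Ube2c (-2.73), Aurkb (-2.72) and Plk1 (-2.53).

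The anaphase and mitotic exit genes had the lowest median of the 7 role groups (-2.26), and 3 of 4 were lower. Pttg1, which encodes securin, the inhibitor that keeps sister chromatids joined, stood at 179 and 167 RPM in control and at 11.3 and 38.3 RPM with DoxRA. Its change of -2.99 (SE 0.27, adjusted p = 7.4e-18) was the most negative among the members. Ube2c, the ubiquitin-conjugating enzyme that works with the anaphase-promoting complex, went from 623 and 491 RPM to 95.3 and 70.9 RPM (-2.73, SE 0.25, adjusted p = 2e-17). Cdca3, placed in this group although it is a trigger of mitotic entry, fell by 1.79 (SE 0.29). In none of these 3 genes did the libraries of the 2 groups overlap. Cdc20, the activator of the anaphase-promoting complex, changed by -0.94 (SE 0.21, adjusted p = 5.1e-05), short of the minimum change, with 159 and 144 RPM in control and 81.4 and 75.7 RPM with DoxRA.

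Of the 8 entry kinases, phosphatases and their regulators, 4 were lower and none higher (median -1.34). Cdk1, the kinase that drives mitosis, read 207 and 239 RPM in control and 55.2 and 35.9 RPM with DoxRA (-2.30, SE 0.29, adjusted p = 1.7e-11). Plk1, the Polo-like kinase, went from 110 and 99.9 RPM to 23.4 and 12.8 RPM (-2.53, SE 0.29). Aurka, which matures spindle poles, fell by 1.89 (SE 0.26), and Cdc25c, a phosphatase that activates CDK1, fell by 1.85 (SE 0.36), with 7.22 and 6.38 RPM with DoxRA. Cdc25c passed the filter of 10 RPM through its control libraries alone, so that a fall was the change it could show. Its call is included in the counts of members lower but does not support them. Its relative Cdc25a (-0.82) had an adjusted p of 5e-04 but missed the minimum change, and Cdc25b (-0.02) had an adjusted p of 0.97. Foxm1, the transcription factor of many mitotic genes, was not lower: its 4 values were 45.1 and 28.4 RPM in control and 51.4 and 60.6 RPM with DoxRA (0.63, SE 0.26, adjusted p = 0.028).

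The spindle checkpoint genes split. Bub3, an adaptor that brings the checkpoint kinases to kinetochores, fell from 191 and 167 RPM to 20.2 and 31.1 RPM (-2.78, SE 0.23, adjusted p = 7.2e-20). Bub1, a checkpoint kinase that also marks centromeres for cohesin protection, rose from 182 and 231 RPM to 954 and 1183 RPM (2.37, SE 0.23, adjusted p = 9.8e-16). The direction of these 2 partners was opposite, and neither pair of groups overlapped. The other 3 checkpoint genes were not called: Bub1b (-0.42, with 127 and 140 RPM against 79.1 and 125 RPM), Mad2l1 (0.20) and Ttk (0.75, adjusted p = 0.0024).

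Among the 7 centromere and kinetochore genes, Cenpa, the histone H3 variant that defines the centromere, was the only one lower, from 291 and 293 RPM to 48.2 and 82.1 RPM (-2.20, SE 0.25, adjusted p = 4.9e-13). Cenpf (1.08, SE 0.26) and Spc25 (1.05, SE 0.31) were called higher. The NDC80 complex grips microtubules at the outer kinetochore. Of its other 3 subunits, Ndc80 had a change of 0.00 (SE 0.28), with 71.6 and 81.6 RPM in control and 82.3 and 70.9 RPM with DoxRA, Nuf2 of 0.14 and Spc24 of -0.73. Within the chromosomal passenger complex, which corrects wrong attachments, the kinase Aurkb fell by 2.72 (SE 0.37, adjusted p = 4.2e-10), from 86.0 and 101 RPM to 4.91 and 33.5 RPM. These 2 DoxRA libraries differed widely from each other, though both lay below control. Incenp, the scaffold of the complex, fell by 1.02 (SE 0.19), while Birc5 (-0.34) and Cdca8 (0.01) were not called.

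None of the 6 spindle motor and assembly genes was called (median 0.47). Kif11, the motor that pushes the poles apart, read 62.6 and 94.5 RPM in control and 117 and 84.5 RPM with DoxRA (0.37, SE 0.42). Top2a, which untangles sister chromatids, read 575 and 554 RPM and then 814 and 861 RPM (0.57, SE 0.19, adjusted p = 0.0055). Its groups did not overlap, but the change was under the minimum. Of the 6 central spindle and cytokinesis genes, Kif23, a motor of the centralspindlin complex that persists at germ cell bridges, rose from 95.7 and 71.1 RPM to 234 and 313 RPM (1.70, SE 0.22, adjusted p = 6.2e-11). Prc1, which bundles the midzone microtubules, fell by 1.34 (SE 0.35), from 65.1 and 64.3 RPM to 40.4 and 15.2 RPM, and its adjusted p was 0.18 without the second DoxRA library.

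**Figure D1:**
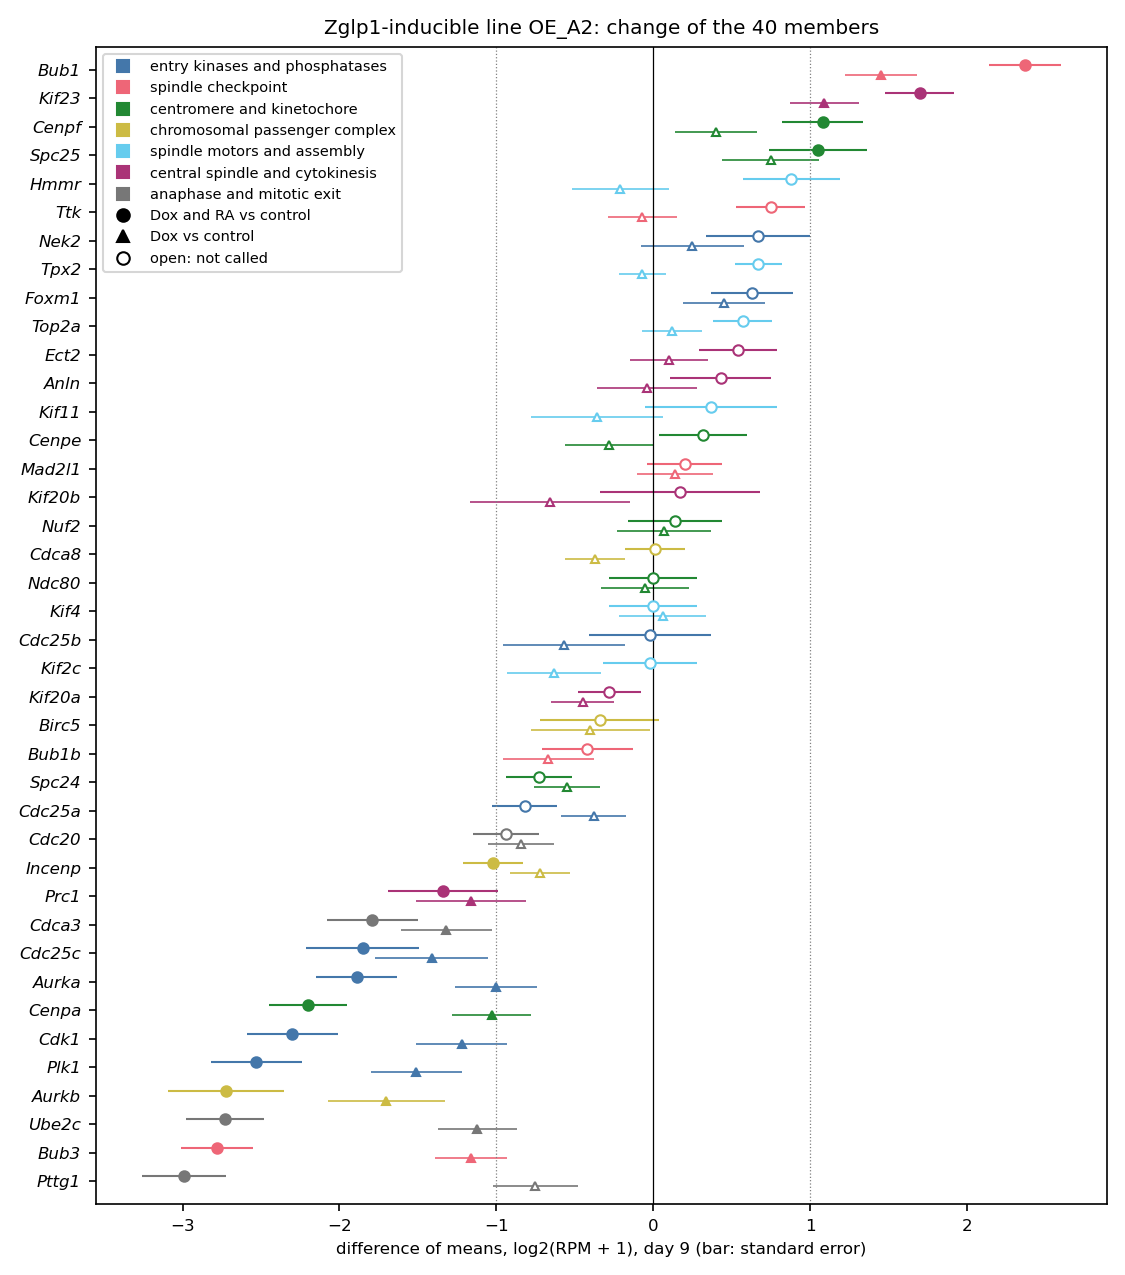
Change of each of the 40 members in OE_A2 on day 9, with Dox and with DoxRA against the same control libraries, as log2(RPM + 1) differences with their standard errors. Genes are ordered by the change with DoxRA and coloured by role. Mitotic exit genes such as Pttg1 (-2.99) and Ube2c (-2.73) lie to the left with DoxRA, Bub1 (2.37) and Kif23 (1.70) to the right, and the spindle motors near 0.

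Of the 16 calls, those of Cenpf and Spc25 were lost with TMM scaling and with edgeR on whole reads, and that of Incenp with a pseudocount of 5. The other 13 were kept under every alternative fit tried, and of the 12 of these that could be tested without each library in turn, only Prc1 lost its call, while Cdc25c was no longer tested without either control library. Markers of other cells varied in these libraries: the summed level of 14 feeder and stroma markers was 138 and 831 RPM in the DoxRA libraries, beside 485 to 509 RPM in control. Of the 7 of these markers tested, 1 was higher and 3 were lower, and 2 were at 0 in each DoxRA library. Their part in the results was not tested.

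To show the sequences next to which these changes lie, promoters of 6 members are given, 3 that contain both of the motifs searched (Ube2c, Cdk1 and Plk1), the most reduced member (Pttg1) and the 2 most raised (Bub1 and Kif23). Each runs 5′ to 3′ from 250 bases before to 50 bases after the RefSeq gene start (GRCm38.p6). The capitals mark TTTGAA, the core of the cell cycle homology region, and CCAAT, the box bound by NF-Y, on either strand (TTCAAA and ATTGG on the other strand). The positions are chr2:164769679-164769978 (+ strand) for Ube2c, chr10:69352863-69353162 (- strand) for Cdk1, chr7:122159185-122159484 (+ strand) for Plk1, chr11:43425932-43426231 (- strand) for Pttg1, chr2:127831810-127832109 (- strand) for Bub1 and chr9:61946750-61947049 (- strand) for Kif23.
Ube2c: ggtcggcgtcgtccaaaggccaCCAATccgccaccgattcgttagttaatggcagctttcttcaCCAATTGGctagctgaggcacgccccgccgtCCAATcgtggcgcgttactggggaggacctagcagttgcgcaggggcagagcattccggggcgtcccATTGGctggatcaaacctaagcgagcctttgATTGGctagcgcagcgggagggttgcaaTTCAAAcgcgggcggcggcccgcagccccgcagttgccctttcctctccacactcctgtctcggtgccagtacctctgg
Cdk1: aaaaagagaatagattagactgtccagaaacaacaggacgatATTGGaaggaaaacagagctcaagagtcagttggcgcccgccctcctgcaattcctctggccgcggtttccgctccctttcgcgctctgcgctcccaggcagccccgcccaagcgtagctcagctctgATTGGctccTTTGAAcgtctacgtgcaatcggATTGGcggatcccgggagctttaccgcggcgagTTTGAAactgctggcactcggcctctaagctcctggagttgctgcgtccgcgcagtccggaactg
Plk1: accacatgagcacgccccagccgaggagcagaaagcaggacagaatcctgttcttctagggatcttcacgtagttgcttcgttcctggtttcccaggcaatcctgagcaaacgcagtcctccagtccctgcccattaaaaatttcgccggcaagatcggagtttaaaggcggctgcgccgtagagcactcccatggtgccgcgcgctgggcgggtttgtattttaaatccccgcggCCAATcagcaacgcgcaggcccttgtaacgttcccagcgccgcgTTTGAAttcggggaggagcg
Pttg1: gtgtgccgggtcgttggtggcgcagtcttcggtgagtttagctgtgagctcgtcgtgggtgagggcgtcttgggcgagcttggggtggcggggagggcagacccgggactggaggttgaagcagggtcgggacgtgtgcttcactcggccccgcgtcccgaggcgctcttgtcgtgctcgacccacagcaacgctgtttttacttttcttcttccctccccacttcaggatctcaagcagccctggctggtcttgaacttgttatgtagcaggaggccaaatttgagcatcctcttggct
Bub1: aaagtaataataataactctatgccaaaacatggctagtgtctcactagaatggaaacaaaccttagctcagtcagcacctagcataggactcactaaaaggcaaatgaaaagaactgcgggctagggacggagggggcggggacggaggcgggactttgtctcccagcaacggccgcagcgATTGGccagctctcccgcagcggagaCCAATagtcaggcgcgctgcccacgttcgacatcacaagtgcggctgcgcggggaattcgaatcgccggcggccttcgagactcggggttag
Kif23: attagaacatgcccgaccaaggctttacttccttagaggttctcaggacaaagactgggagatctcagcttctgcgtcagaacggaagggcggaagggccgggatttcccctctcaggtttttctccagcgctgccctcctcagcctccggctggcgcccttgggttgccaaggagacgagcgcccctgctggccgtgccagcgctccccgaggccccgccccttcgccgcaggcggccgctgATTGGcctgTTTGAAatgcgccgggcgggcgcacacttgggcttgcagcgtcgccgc

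Promoters on chromosome 18, which holds Cdc25c and Kif20a, were left out for the members but not for the background of all promoters. Of the 40 members, 33 had a promoter in the set used, with 36 promoters. TTTGAA occurred in 27 of the 36 (75.0%), beside 17.9% of all 32851 promoters of the same 300 bases, and CCAAT in 28 (77.8%), beside 37.4%. Both occurred in 23 (63.9%), beside 6.95% of all. The E2F-like GGCGGGA occurred in 10 (27.8%), beside 11.3%. All motifs were searched on both strands, and matches of different motifs may overlap at their ends. The 12 genes lower with DoxRA had 11 promoters in this set, from 9 genes, of which 10 held both TTTGAA and CCAAT (90.9%). The promoter windows of Bub3 overlap each other, as do those of Prc1 and of Ect2, so motif copies they share count in each. The 4 higher genes had 4 promoters, of which 3 held both, and the 24 genes not called had 21, of which 10 held both (47.6%). Pttg1 held neither motif in this window, and Bub1 held CCAAT without TTTGAA. The Pttg1 window lies wholly inside the gene as annotated in GENCODE, where its 5′ end is at chr11:43426251. It holds no bases upstream of that start, so the missing motifs say nothing of the sequence there. The windows of Cdca3, Cdca8, Kif2c and Kif4 also lie inside their genes as annotated, as does the more downstream window of Bub3. Kif23, which rose, held both, as did Cdk1 and Ube2c, which fell.

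Dox alone and DoxRA were set against the same control libraries, so their values are given side by side and their likeness is not a result. With Dox, 10 of 40 members were lower and 2 were higher, beside 9.38% and 13.4% of the 9372 genes tested. The share of members lower was above that background. The members' median was -0.39, beside 0.06 over all genes. Aurkb (-1.70, SE 0.37, 24.5 and 31.9 RPM), Plk1 (-1.51, SE 0.29, 37.8 and 34.3 RPM) and Cdc25c (-1.41, SE 0.36, 8.60 and 10.6 RPM) fell most. Cdk1 stood at 79.1 and 114 RPM (-1.22), Ube2c at 267 and 243 RPM (-1.12), Bub3 at 79.1 and 79.8 RPM (-1.16) and Cenpa at 140 and 145 RPM (-1.03), all between the control and DoxRA levels. Bub1 rose to 570 and 557 RPM (1.45, SE 0.23, adjusted p = 4.5e-07) and Kif23 to 176 and 178 RPM (1.09, SE 0.22). Pttg1, at 101 and 103 RPM (-0.75, adjusted p = 0.021), did not reach the minimum change. The calls of Ube2c, Aurka, Prc1, Kif23 and Cdk1 were each lost without 1 of the libraries, those of Ube2c and Aurka without the first control library, of Prc1 and Cdk1 without the first Dox library, of Aurka also without the second, and of Kif23 without the second control library.

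Adding RA to Dox lowered a subset further. Set against Dox itself, 7 of the 39 members tested were lower and 1 was higher with DoxRA, beside 10.6% and 4.28% of 9121 genes. The share lower was above the background and the share higher below it. Pttg1 (-2.23, SE 0.27, adjusted p = 3.8e-11), Bub3 (-1.62, SE 0.23) and Ube2c (-1.62, SE 0.25) fell most, and their calls were kept without any single library. Cenpa (-1.17), Cdk1 (-1.08), Aurkb (-1.02) and Plk1 (-1.01) followed. Of the 4 fits without 1 library, Cenpa lost its call in 1, Cdk1 and Plk1 in 2 and Aurkb in 3. Each of these calls was also lost when only the groups compared were fitted. Those of Aurkb and Plk1 were lost with edgeR and with a pseudocount of 5 too. Aurkb turned to 0.25 (adjusted p = 0.68) without the first DoxRA library, the one at 4.91 RPM. Hmmr, which organises spindle microtubules, rose from 80.0 and 80.7 RPM to 147 and 201 RPM (1.09, SE 0.31, adjusted p = 0.0051), a call also lost without the second library of either group. Without the second DoxRA library 5 members were called.

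**Figure D2:**
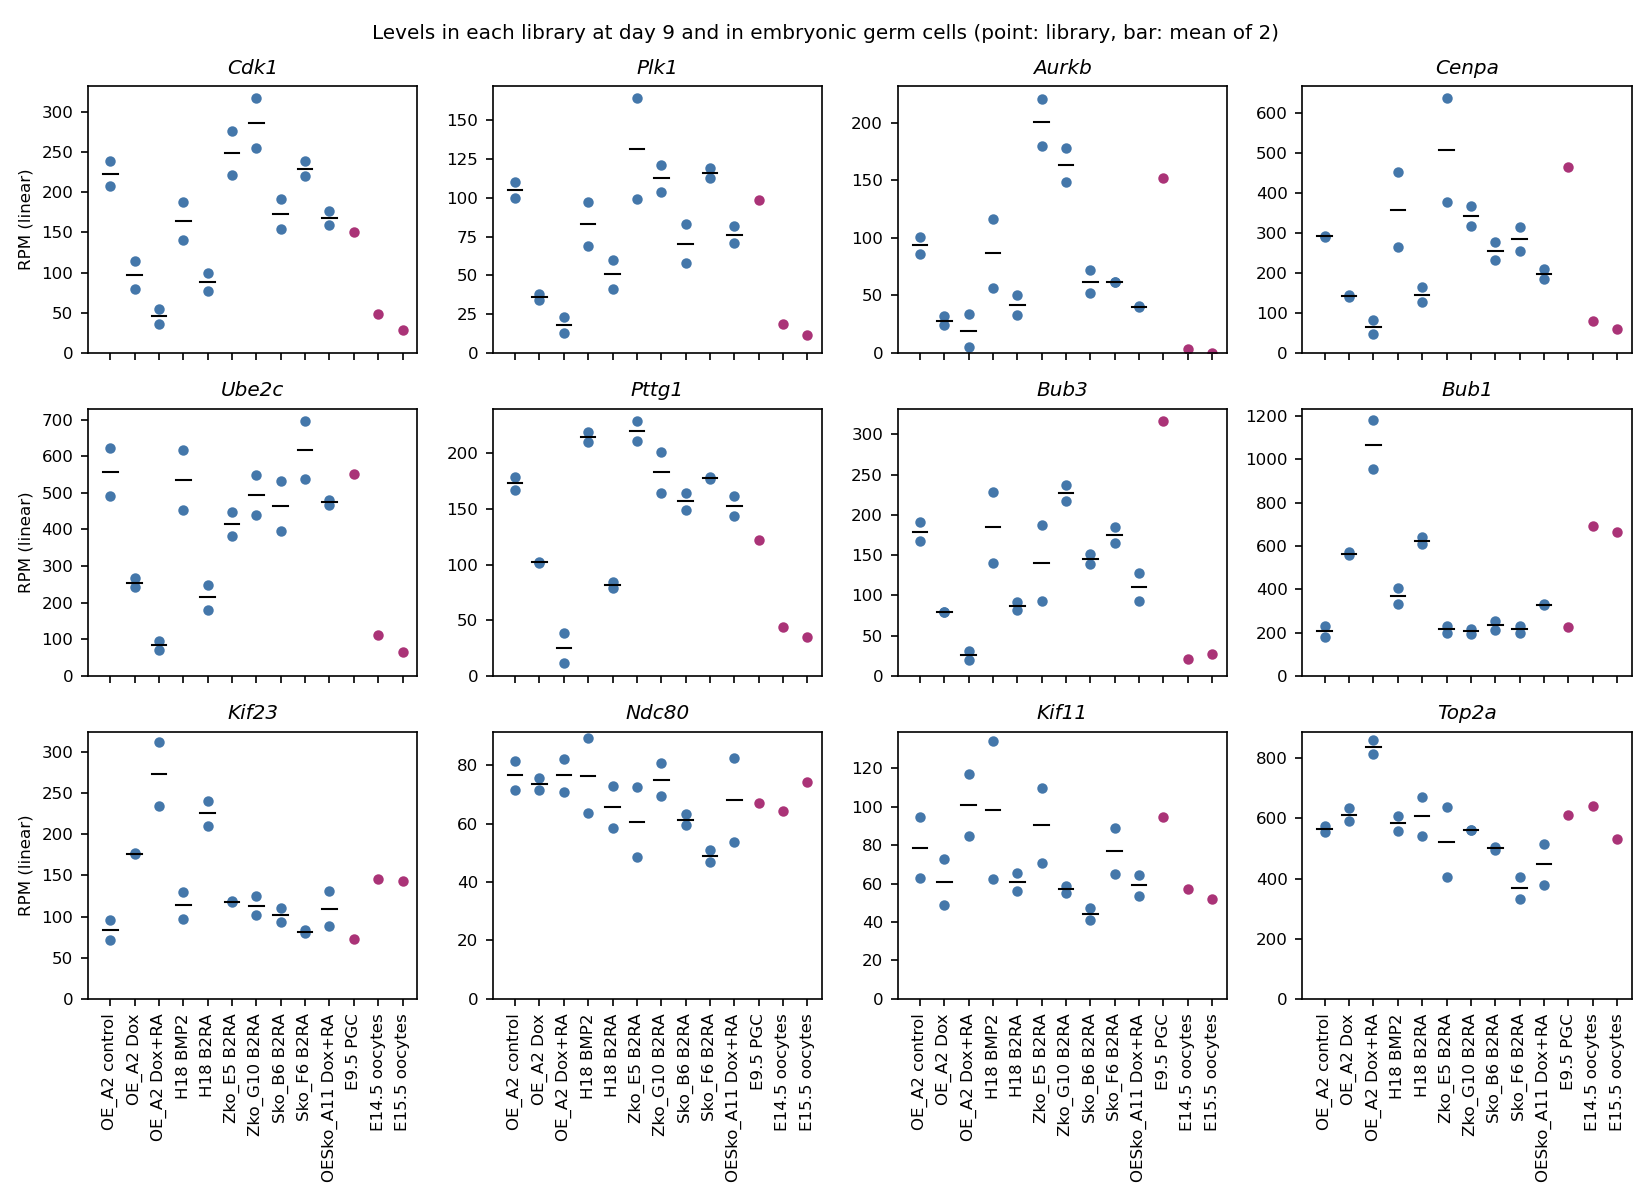
RPM of 12 members in each day 9 library by line and treatment, with the 3 embryonic libraries at the right; each point is a library. Among the cultured libraries shown, Ube2c and Cdk1 are lowest and Bub1 is highest (954 and 1183 RPM) in OE_A2 with DoxRA, while Ndc80 reads 82.3 and 70.9 RPM there and 71.6 and 81.6 RPM in control.

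Further comparisons switch on the transgene in other media, with their own controls and so with no library in common with those above. SerumMinusWINDox was compared with SerumMinusWIN, and BMSDox with BMS. In the first pair, 8 of 40 members were lower and 1 was higher, beside 9.71% and 13.3% of 9326 genes, with a median of -0.40 beside 0.01. Aurkb read 116 and 114 RPM without Dox and 37.7 and 10.9 RPM with it (-2.43, SE 0.37, adjusted p = 7.1e-08). Cdc25c read 31.3 and 27.5 RPM, then 6.05 and 4.58 RPM (-2.27, SE 0.36), and again passed the filter only through the libraries without Dox. Cdk1 read 266 and 248 RPM, then 119 and 67.0 RPM (-1.52, SE 0.29). Bub1 again rose, from 169 and 185 RPM to 455 and 559 RPM (1.51, SE 0.23, adjusted p = 1.3e-07). Pttg1 (-1.41), Plk1 (-1.31), Bub3 (-1.25), Bub1b (-1.24) and Ube2c (-1.02) were lower too. The calls of Plk1, Bub3, Bub1b and Ube2c were lost without the second SerumMinusWINDox library, and 14 members were called without the first.

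In the second pair, 3 members were lower and 1 was higher, beside 6.39% and 14.8% of 9279 genes, a share lower near the background. With TMM scaling, which moved the median of all genes by -0.28, 8 were lower and 0 higher. The share of all genes with that scaling is not given here, so the share lower is read as near the background only without it. Aurkb read 124 and 110 RPM with BMS and 45.6 and 23.7 RPM with BMSDox (-1.80, SE 0.37, adjusted p = 6.2e-05). Cdc25c read 36.0 and 30.6 RPM, then 15.8 and 2.84 RPM (-2.09, SE 0.36). Its call was lost without the second BMSDox library. Bub1b (-1.09) was lower, a call lost without that library or without the first BMS library. Foxm1 rose from 26.6 and 23.4 RPM to 54.6 and 56.8 RPM (1.13, SE 0.26, adjusted p = 3.2e-04), a call lost with TMM scaling and with edgeR. The members called numbered 8 without the first BMSDox or the second BMS library and 2 without the second BMSDox library. The vector sequence was higher with BMSDox (1.034e+04 RPM) than with Dox, so transgene level and medium cannot be told apart.

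The media themselves gave no calls among the members and few among all genes, so a count of 0 says little about the members. BMS against control called 0 of 40 members in either direction with limma, beside 1.91% of 9037 genes lower and 0.542% higher, and 1 member had an unadjusted p under 0.05. SerumMinusWIN against control called 0, beside 0.011% of 9091 genes each way, with 0 members at an unadjusted p under 0.05. Members' changes ran from -0.69 to 0.62 and from -0.27 to 0.40. The edgeR fit also called none in either comparison.

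**Figure D3:**
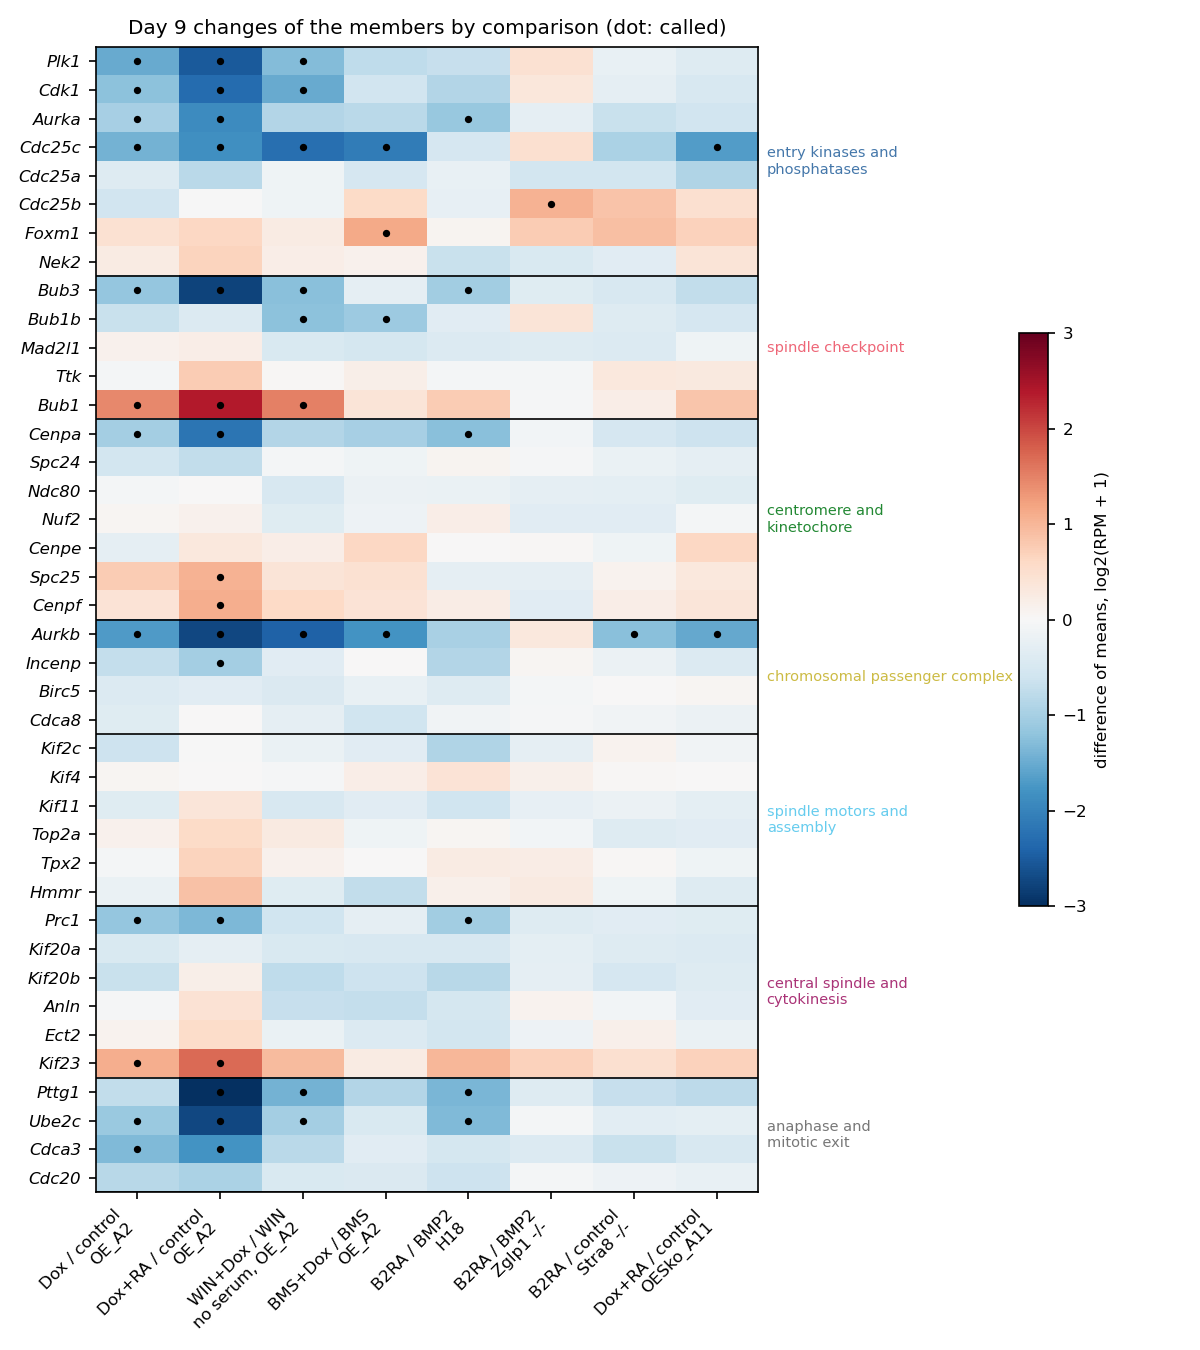
Change of every member (rows, by role) in 8 day 9 comparisons (columns), as log2(RPM + 1) differences; a dot marks a gene called by limma. Aurkb, Cdc25c and Ube2c are lower in several columns, Bub1 and Kif23 are higher with Dox and DoxRA in OE_A2, and the columns of the lines without Zglp1 or Stra8 hold 1 or 2 dots each.

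In the parental line, which has no transgene, B2RA was compared with BMP2 on day 9; no control without BMP2 was used after day 4. Of 40 members 6 were lower and 0 higher, beside 6.98% and 9.05% of 9594 genes, so the share lower was above the background. Pttg1 fell from 210 and 219 RPM to 78.8 and 84.8 RPM (-1.38, SE 0.27, adjusted p = 3.8e-05), and Ube2c from 453 and 618 RPM to 180 and 249 RPM (-1.32, SE 0.25, adjusted p = 2.6e-05). Cenpa fell from 265 and 453 RPM to 128 and 165 RPM (-1.25, SE 0.25). Aurka (-1.13), Bub3 (-1.04) and Prc1 (-1.04) completed the set. Bub1 read 405 and 332 RPM with BMP2 and 640 and 608 RPM with B2RA (0.76, adjusted p = 0.01) and Kif23 130 and 97.5 RPM and then 210 and 241 RPM (0.99, adjusted p = 2.8e-04), both without overlap but under the minimum change.

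The calls of Cenpa, Aurka, Bub3 and Prc1 were lost without the second BMP2 library, and those of Aurka, Bub3 and Prc1 also without the first B2RA library and that of Prc1 without the second. The members called numbered 2 without the second BMP2 library and 11 without the first. Feeder and stroma markers summed to 596 and 1217 RPM with B2RA and 409 and 809 RPM with BMP2, with 2 of 9 tested higher. The 8 gonadal soma markers summed to 50.0 and 235 RPM with B2RA and 13.2 and 13.7 RPM with BMP2, of which Gata4 and Wnt4 were higher and 3 were at 0 in each B2RA library. Their part in the results was not tested.

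Across the 4 comparisons with no library in common (DoxRA with control, SerumMinusWINDox with SerumMinusWIN, BMSDox with BMS, and B2RA with BMP2 in H18), 5 members (12.5%) were lower in 3: Cdc25c, Aurkb, Bub3, Ube2c and Pttg1. In the DoxRA and SerumMinusWINDox comparisons Cdc25c passed the filter only through the libraries without Dox, so its place among the 5 is no support for that share. Of the 8407 genes tested in all 4, 3.81% were lower in 3 and a further 1.44% in all 4, which held for 0 members. Cdk1, Plk1, Aurka, Bub1b, Cenpa and Prc1 were lower in 2, and 27 members (67.5%) were lower in none, beside 75.2% of those genes. Bub1 was higher in 2. All 6 genes lower in H18 were also lower with DoxRA in OE_A2 (100.0% of the 6 and 50.0% of the 12). The same held for 508 of the 670 genes lower in H18 overall (75.8%), which were 23.7% of the 2145 lower with DoxRA. No test of these overlaps was made.

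In the Zglp1-/- clones no member was called lower on day 9 with BMP2 or B2RA. At most 4.33% of all genes tested were lower in these comparisons, so 0 of 40 says little about the members. BMP2 against control in the 2 Zglp1-/- clones called 0 of 40 members, beside 0.648% of 9565 genes lower and 0.815% higher, with 0 calls in edgeR too and an unadjusted p under 0.05 in 1 member. B2RA against control called 0 lower and 1 higher, beside 4.33% and 6.63% of 9980 genes. B2RA against BMP2 likewise called 0 lower and 1 higher, beside 2.79% and 4.52% of 9874 genes. The single gene was Cdc25b, another CDK1-activating phosphatase, at 31.9, 46.7, 28.4 and 29.6 RPM with B2RA and 15.2, 14.6, 18 and 15.0 RPM with BMP2 (1.05, SE 0.28, adjusted p = 0.0039). That call was lost with TMM scaling, with edgeR and with a pseudocount of 5, whereas the change from control (1.28, adjusted p = 1.8e-04) kept its call.

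The effect of adding RA to BMP2 differed between the lines for 4 members, all with a higher change in the clones than in H18, beside 4.36% higher and 4.02% lower of 10675 genes. They were Ube2c (a difference of 1.27, SE 0.31, adjusted p = 0.0039), Cdk1 (1.22), Cenpa (1.16) and Plk1 (1.15). The share, 4 of 40, was above the background for higher. None of the 4 was called when only the groups compared were fitted or without the second H18 BMP2 library, and 9 members were called without the first, 1 without the first H18 B2RA library and 2 without the second Zko_E5 B2RA library.

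Set directly against H18 with B2RA, the Zglp1-/- clones had 11 members higher and 2 lower, beside 15.4% and 21% of 10246 genes. The share higher was above the background and the share lower below it. Cdc25c stood at 48.5, 58.8, 49.5 and 36.4 RPM in the clones and at 7.82 and 12.1 RPM in H18 (2.18, SE 0.31, adjusted p = 3.9e-09). Aurkb stood at 180, 221, 179 and 149 RPM against 32.6 and 50.8 RPM (2.12, SE 0.32). Cdk1 stood at 277, 221, 255 and 318 RPM against 99.0 and 76.6 RPM (1.60, SE 0.25, adjusted p = 3.1e-08). Bub1 was lower, at 200, 231, 217 and 195 RPM against 640 and 608 RPM (-1.57, SE 0.20), as was Cenpf (-1.26, SE 0.23). The 8 gonadal soma markers summed to 44.5 to 107 RPM in the clones and to 50.0 and 235 RPM in H18, and 2 of 4 tested, Wnt4 and Wt1, were lower in the clones (median of the 4, -1.16). The 14 feeder and stroma markers summed to 998 to 1302 RPM in the clones and to 596 and 1217 RPM in H18, with 1 of 10 tested higher and 1 lower. Their part was not tested. For Cdc25c, Aurkb, Cdk1 and Bub1 every knockout library lay on the same side of both H18 libraries. Bub1b, Ube2c, Aurka and Plk1 lost their calls without the first H18 library.

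The Stra8-/- clones gave fewer calls against the same H18 libraries, so the knockouts are set side by side only. With B2RA, 4 members were higher and 3 lower than in H18, beside 11.3% and 13.5% of 10131 genes, shares near or below the background. Prc1 (1.47, SE 0.30), Ube2c (1.32, SE 0.22, at 533, 396, 698 and 538 RPM) and Cdk1 (1.18, SE 0.25, at 192, 154, 239 and 220 RPM) were higher. Bub1 (-1.48, SE 0.20, at 254, 212, 200 and 231 RPM) and Kif23 (-1.30, SE 0.19, at 110, 93.4, 83.1 and 79.5 RPM) were lower. Pttg1 (1.02) and Nuf2 (-1.01) completed the set, and both lost their calls with a pseudocount of 5 and without the first H18 library. Without the second H18 library the call of Cdk1 was lost and 11 members were called.

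Within the Stra8-/- clones, B2RA lowered only Aurkb among the members (0 higher), beside 5.08% of 10111 genes lower and 15.7% higher. It stood at 51.8, 72.1, 61.9 and 61.5 RPM with B2RA and 147, 145, 161 and 141 RPM in control (-1.26, SE 0.26, adjusted p = 3.5e-05), with no overlap in either clone. Gonadal soma markers summed to 30.0 to 146 RPM with B2RA and to 3.55 to 27.8 RPM in control, with 2 of 3 tested higher, and their part was not tested. The share, 1 of 40, was below the background. The count was 2 with TMM scaling, which moved the median of all genes by -0.3, and with edgeR, 2 without the second Sko_B6 B2RA library and 3 without the second Sko_F6 control library. In the transgenic line without Stra8, DoxRA lowered 2 members, Cdc25c (-1.67, SE 0.36) and Aurkb (-1.53, SE 0.37), and raised 0, beside 6.56% and 13.5% of 9663 genes. Cdc25c went from 25.4 and 21.4 RPM to 7.62 and 5.81 RPM and passed the filter only through control, and Aurkb from 125 and 112 RPM to 41.0 and 39.7 RPM. Bub1 went from 198 and 170 RPM to 330 and 326 RPM (0.83, adjusted p = 0.0039), under the minimum change. Without the first control library 1 member was called.

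The response to DoxRA differed between OESko_A11 and OE_A2 for 11 members: 8 had a higher and 3 a lower change in OESko_A11 than in OE_A2, beside 14.8% higher and 5.24% lower of 10372 genes. Both shares, 8 of 40 and 3 of 40, were near the background. Ube2c gave the largest difference among the members (2.45, SE 0.35, adjusted p = 5.7e-08): it stood at 600 and 559 RPM in OESko_A11 control and at 481 and 467 RPM with DoxRA. Pttg1 (2.20) stood at 278 and 252 RPM in control and at 162 and 144 RPM with DoxRA. Plk1 (2.14) went from 100 and 99.9 RPM to 81.9 and 70.7 RPM, and Cdk1 (1.82) from 239 and 231 RPM to 159 and 177 RPM. Bub3 (2.05), Cenpa (1.58), Aurka (1.32) and Cdca3 (1.3) followed. Bub1 (-1.53), Hmmr (-1.27) and Kif23 (-1.02) had a lower change in OESko_A11. The calls of Cdca3, Hmmr and Kif23 were lost without 1 of the libraries, the second OE_A2 DoxRA library among them for each. Aurkb was not among the 11 (a difference of 1.19, SE 0.52, adjusted p = 0.086), and it fell in both lines.

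With DoxRA in both lines, OESko_A11 exceeded OE_A2 in 10 of 39 members and was lower in 3, beside 19.6% and 11.5% of 9623 genes (10 and 5 with TMM scaling). The differences were led by Pttg1 (2.81, SE 0.27), Ube2c (2.51, SE 0.25), Plk1 (2.07, SE 0.29) and Bub3 (2.07, SE 0.23), with Bub1 (-1.69, SE 0.23), Kif23 (-1.32) and Spc25 (-1.14) lower. Aurkb was higher too (1.53, SE 0.37, adjusted p = 3.5e-04), a call lost without the first OE_A2 DoxRA library and when only the groups compared were fitted. This comparison shares its OE_A2 libraries with those above. The 2 lines are separate clones, and the vector sequence stood at 4841 ± 1445 RPM in OESko_A11 and 3165 ± 2043 RPM in OE_A2 (n = 2), so clone and Stra8 genotype cannot be told apart. Stroma markers summed to 772 and 1244 RPM in OESko_A11 with DoxRA and to 489 and 713 RPM in its control, and 3 of 10 tested were higher and 1 lower. Their part was not tested.

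**Figure D4:**
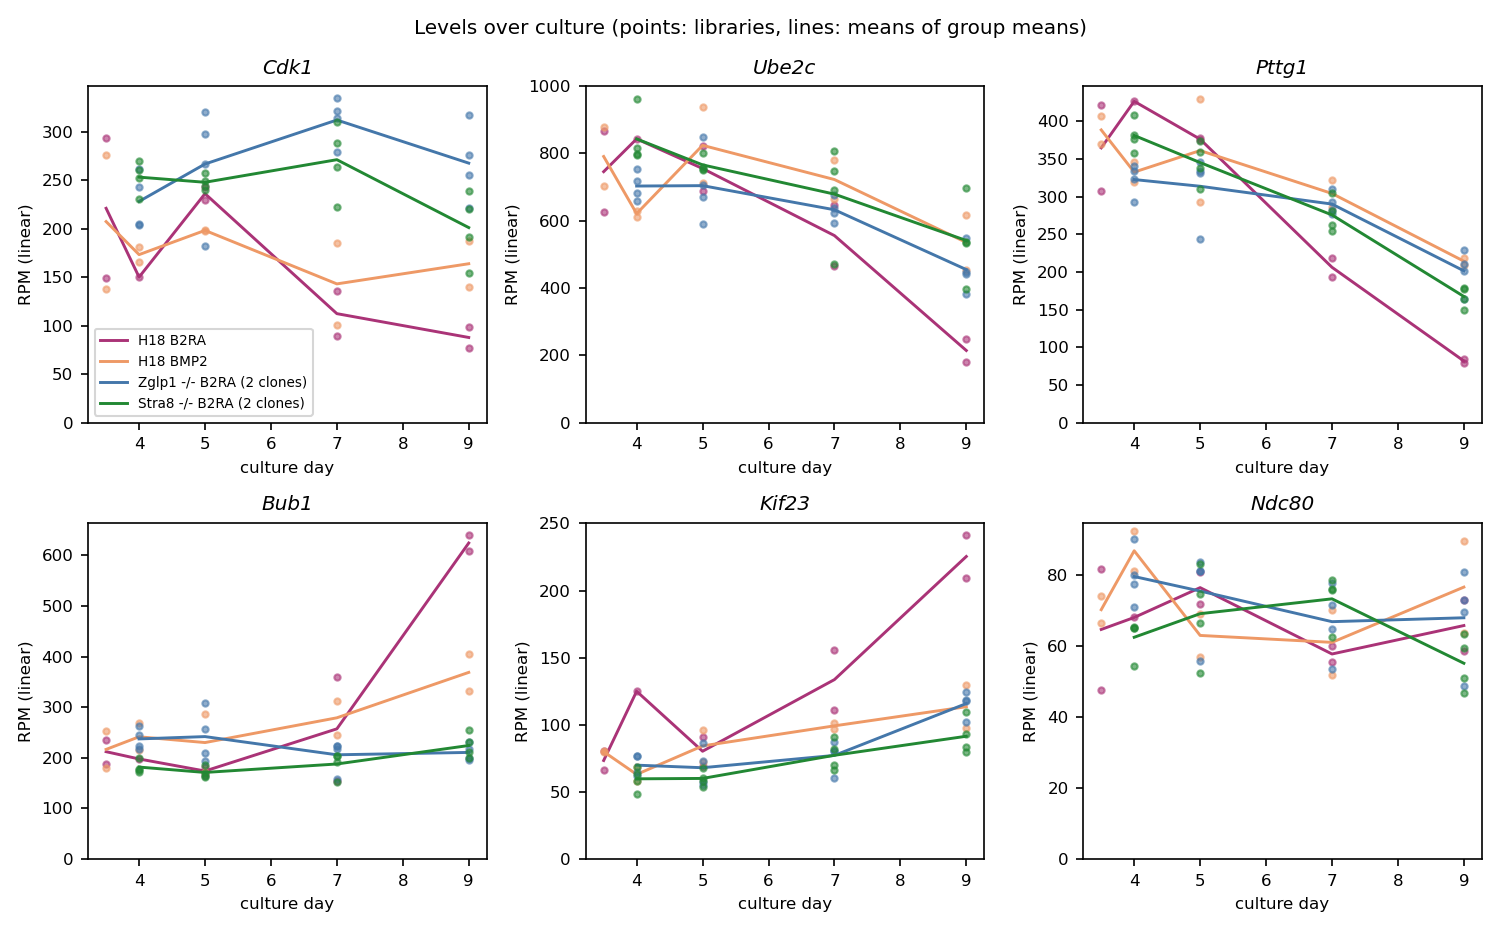
RPM by culture day for 6 members in H18 with BMP2 or B2RA and in the Zglp1-/- and Stra8-/- clones with B2RA; points are libraries and lines join group means. From day 5 to day 9 of B2RA in H18, Ube2c fell from 755 to 214 RPM and Bub1 rose from 174 to 624 RPM, while the day 9 libraries with B2RA read 73.0 and 58.4 RPM for Ndc80.

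The time courses show when the levels moved. In H18 with B2RA, 12 members were lower and 2 higher on day 9 than on day 5, beside 13.1% and 28.1% of 9590 genes. The share lower was above the background and the share higher below it. Ube2c averaged 755 ± 94.4 RPM on day 5, 556 ± 128 RPM on day 7 and 214 ± 48.7 RPM on day 9 (mean ± SD, n = 2; -1.83, SE 0.25, adjusted p = 9.2e-10). Pttg1 averaged 376 ± 2.22 RPM, 206 ± 17.8 RPM and 81.8 ± 4.21 RPM on the same days (-2.19, SE 0.27). Cdk1 averaged 236 ± 9.35 RPM, 112 ± 32.8 RPM and 87.8 ± 15.8 RPM (-1.43, SE 0.29). Bub1 averaged 174 ± 11.9 RPM, 257 ± 145 RPM and 624 ± 22.7 RPM (1.84, SE 0.23, adjusted p = 7.7e-11), with day 7 libraries at 360 and 155 RPM. Kif23 also rose (1.49, SE 0.22), and Aurkb (-1.57), Aurka (-1.5), Incenp (-1.48), Bub3 (-1.40), Cdca3 (-1.31), Cdc25c (-1.28), Cenpa (-1.21), Prc1 (-1.16) and Plk1 (-1.03) fell.

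In OE_A2 with DoxRA the libraries of days 4 and 5 and the first of day 7 carry another protocol text than the second of day 7 and those of day 9, so the course is described only. Ube2c averaged 899 ± 37.2 RPM on day 4, 557 ± 12.8 RPM on day 5, 190 ± 52.4 RPM on day 7 and 83.1 ± 17.2 RPM on day 9 (n = 2). Pttg1 averaged 248 ± 14.8, 178 ± 33.3, 57.5 ± 20.2 and 24.8 ± 19.1 RPM, and Bub1 306 ± 34.9, 334 ± 4.54, 723 ± 149 and 1069 ± 162 RPM on these days. The means of Ube2c and Pttg1 were lower, and of Bub1 higher, at each later day.

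Cultures without inducers gave few calls between day 4 and day 9. Control cultures called 0 of 40 in the Zglp1-/- clones (9.99% of 9359 genes higher, 2.17% lower) and 0 in the Stra8-/- clones (6.27% of 9158 higher, 1.15% lower), with an unadjusted p under 0.05 in 10 and 8 members and no edgeR call in either. In OE_A2 only Nek2, a centrosome kinase, was lower (-1.42, SE 0.33) and 0 were higher, beside 3.14% and 7.35% of 9024 genes, and that call was lost without the first day 9 library. With B2RA the Zglp1-/- clones had 1 higher (Cdc25b, 1.89, SE 0.28) and 1 lower (Nek2, -1.05), beside 17.4% and 5.6% of 9782 genes (1 and 2 with TMM scaling). The Stra8-/- clones had 1 higher (Cdc25b, 1.26) and 2 lower (Pttg1, -1.18, and Aurkb, -1.17), beside 21.6% and 5.22% of 9984 genes (0 and 9 with TMM scaling). In OESko_A11 with DoxRA 5 were lower and 0 higher, beside 6.06% and 18.7% of 9484 genes (11 lower with TMM scaling), led by Cdc25c (-1.82, which passed the filter through day 4 alone) and Aurkb (-1.46), with Ube2c (-1.14), Pttg1 (-1.10) and Bub3 (-1.01), and 2 were called without the second day 4 library.

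With BMSDox only Ube2c was lower (-1.13) and 0 were higher, beside 2.29% and 8.27% of 9146 genes, a call lost without the second day 9 library. The count was 3 with TMM scaling, which moved the median of all genes by -0.22, 6 without the first day 9 library and 3 without the first day 4 library. With SerumMinusWINDox 5 were lower and 1 higher, beside 7.63% and 12.5% of 9205 genes: Bub1 rose (1.72, SE 0.23, adjusted p = 3.2e-09), and Aurkb (-1.38), Cdk1 (-1.15), Pttg1 (-1.14), Ube2c (-1.10) and Cdc25c (-1.08, tested through day 4 alone) fell, with 14 called without the first day 9 library and 2 without the second.

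The embryonic libraries, 1 per stage and so without a test, were compared by a change past 1 on the log2 scale in both oocyte libraries against E9.5. Of the 40 members 16 were lower and 1 was higher, beside 22.5% and 29.4% of 9445 genes. Aurkb stood at 152 RPM at E9.5, 3.3 RPM at E14.5 and 0.4 RPM at E15.5. Bub3 stood at 317, 21.5 and 27.5 RPM, Ube2c at 551, 113 and 66.5 RPM, and Cdk1 at 150, 48.8 and 28.2 RPM. Bub1 stood at 228, 692 and 664 RPM and was the single member past the limit upward. Ndc80 (67.2, 64.2 and 74.3 RPM) and Top2a (612, 642 and 531 RPM) stayed within it. The 12 members lower with DoxRA in OE_A2 were all lower in both oocyte libraries, of which Aurkb and Cdc25c reached 10 RPM at E9.5 alone, beside 63.7% of the 1771 genes lower with DoxRA overall. Of the 4 members higher with DoxRA 1 was higher in both, beside 72.0% of 2307 genes. The other 4 members lower in the oocytes were Nek2, Bub1b, Kif20b and Cdc20.

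Other cell division genes in OE_A2 with DoxRA are set beside the 25.6% higher and 22.5% lower of all genes tested. Of 18 further mitotic kinases and regulators 5 were lower and 0 higher (median -0.45): the CDK subunit Cks1b (-2.84), the MuvB partner Mybl2 (-2.61) and the cyclins Ccnb1 (-2.41), Ccna2 (-1.89) and Ccnb2 (-1.02). Of 32 further kinetochore and centromere genes tested 7 were higher, such as Cenpq (2.48, SE 0.41), and 1 was lower, Cenpt (-1.56). Of 21 further spindle genes 5 were higher, such as Haus8 (2.1) and Ckap5 (1.88), and Nusap1 was lower (-1.07). Of 8 condensins 3 were higher and 1 lower. Of 16 subunits and regulators of the anaphase-promoting complex 2 were lower, Cdc26 (-2.48) and Cdc23 (-1.58), and 2 were higher. Of 16 DREAM, MuvB and pocket protein genes 5 were lower and 2 higher, with Lin37 at -2.64 and Lin9 at 2.09. The CDK inhibitors Cdkn2c (3.25) and Cdkn1a (-2.89) moved in opposite directions. Of 20 DNA replication genes 9 were lower and 2 higher (median -0.81), while 15 of 16 meiotic prophase genes were higher (median 4.11) and all 7 early germ cell genes tested were lower (median -3.44).

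**Figure D5:**
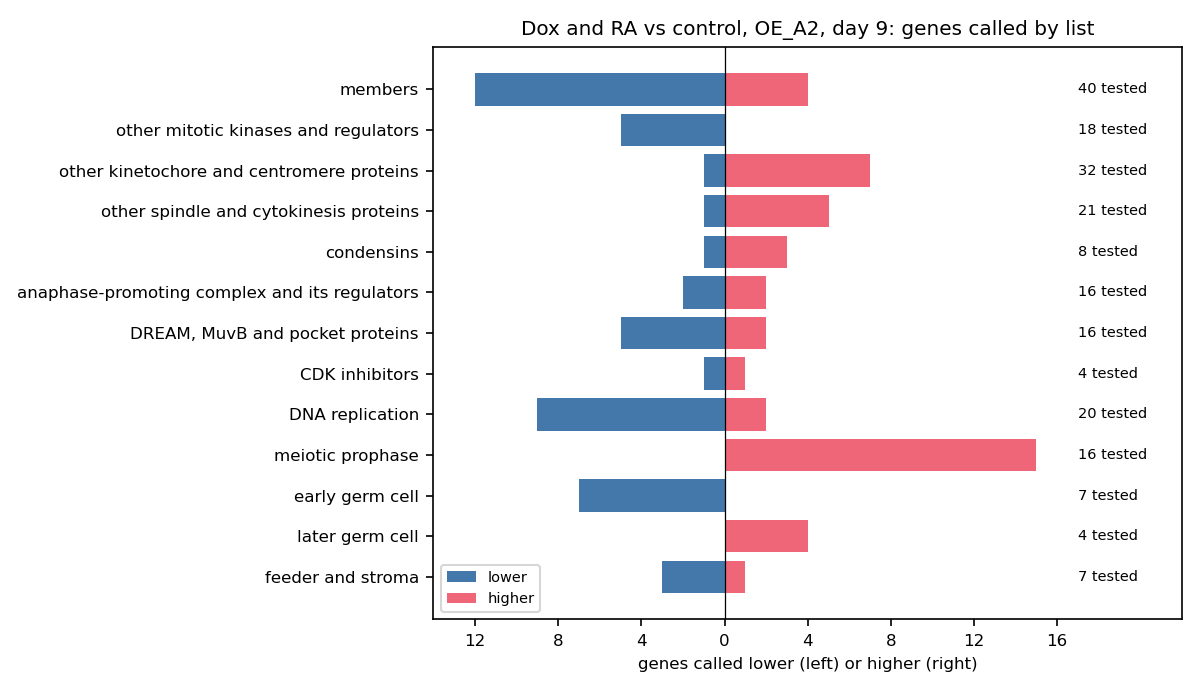
Number of genes called higher or lower in each list, with the number tested, for DoxRA against control in OE_A2 on day 9. The 40 members show 4 higher and 12 lower, the further kinetochore genes 7 higher and 1 lower, and the meiotic prophase genes 15 higher of 16.

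Some of these levels rest on 3′ ends that other genes overlap. In the GENCODE annotation of GRCm38 the last 1000 bases of 6 of the 40 members overlap another coding gene by at least 1 base. Bub3, Ube2c, Prc1, Cdc20 and Kif20a overlap a gene on the opposite strand (Fgfr2, Tnnc2, Rccd1, Elovl1 and Cdc23), and Foxm1 overlaps genes on its own strand. Whether strand was used in counting is not given in the sources used here, so reads of Bub3, Ube2c and Prc1 cannot be told apart from those of such neighbours. Pttg1, Cdk1, Plk1, Aurkb, Cenpa, Bub1 and Kif23 have no such overlap.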

How the data were processed

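The authors deposited 1 table of RPM per gene; per the submitters' processing notes reads were handled with HTSeq 0.9.1, SAMtools 1.3, Bowtie 1.1.2, TopHat2 2.1.0 and cutadapt 1.9.1, whose roles are not given, on the mm10 build. In the deposited table the vector rows share this scale, so 14 columns total above it and are recorded as signal. The deposited RPM values were whole multiples of what 1 read is worth (100.0% within 0.05), which gave the depths; sequences of the vectors were kept apart. Of 195 value columns 194 were used and 1 matched no sample. Genes with at least 10 RPM in 2 or more of the libraries compared were tested with limma 3.58.1 (trend and robust variance, Benjamini-Hochberg adjustment over all tested genes) on log2(RPM + 1) of 191 libraries in 98 groups, with 93 residual degrees of freedom. Alternatives were pseudocounts of 0.5 and 5, no filter, TMM factors, edgeR 4.0.16 on the recovered whole reads, a replicate block, only the groups compared, no minimum change and leaving out each library. The scripts were tested on simulated data. Members, gene lists and comparisons were chosen with earlier results of these data known. All 40 members may be named; 10 (Cdk1, Plk1, Aurkb, Bub1b, Cenpa, Ndc80, Kif11, Top2a, Cdc20, Foxm1) and the 3 largest calls of each comparison are given per library. Most groups hold 2 libraries, with 985914 to 3934980 reads on day 9. Deviations of same-numbered libraries correlated over 0.1 in all 6 pairs of groups for BMP2 against control in the Zglp1-/- clones (0.145 to 0.272) and B2RA against control in the Stra8-/- clones (0.117 to 0.414), a pairing seen in the data and not in the labels. Some comparisons with 1 pair of groups passed 0.1 too, up to 0.434 for SerumMinusWIN against control. Others with 1 pair were lower, down to -0.105 for BMSDox over time.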

Additional observations from a re-analysis of the deposited data

Results flagged for a closer look

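The following differences between lines were picked out because a test of the difference itself passed the threshold in limma. The response to DoxRA differed between OESko_A11 and OE_A2 for 11 members: Ube2c (2.45), Pttg1 (2.20), Plk1 (2.14), Bub3 (2.05), Cdk1 (1.82), Cenpa (1.58), Aurka (1.32), Cdca3 (1.3), Kif23 (-1.02), Hmmr (-1.27) and Bub1 (-1.53), as log2 differences of OESko_A11 minus OE_A2. The response to RA on top of BMP2 differed between the Zglp1-/- clones and H18 for 4 members: Ube2c (1.27), Cdk1 (1.22), Cenpa (1.16) and Plk1 (1.15), as the clones minus H18. For the DoxRA difference 14.8% of all genes tested were higher and 5.24% lower, and the members' shares were near these. For the RA difference 4.36% were higher and 4.02% lower, and the members' share higher was above this. None of these 4 calls was kept when only the groups compared were fitted. No group of members met the rule for a single library far from the others, since groups of 2 libraries are too small for it.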

How the results depend on the processing

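Counts of members called are compared here over the alternatives listed. TMM factors moved the median of all tested genes by over 0.1 on the log2 scale in 16 of 27 comparisons (-0.36 to 0.16). With TMM factors 0 members were called for B2RA against BMP2 in the Zglp1-/- clones, 2 for B2RA in the Stra8-/- clones, 8 for BMSDox, 4 for DoxRA in OESko_A11, and over time 9 for B2RA in the Stra8-/- clones, 3 for BMSDox and 11 for DoxRA in OESko_A11. With edgeR these were 0, 2, 7, 4 and, over time, 9 for the Stra8-/- clones and 11 for OESko_A11. A pseudocount of 5 gave 0 for B2RA against BMP2 in the Zglp1-/- clones. Fitting only the groups compared gave 3 for B2RA in H18, 4 for DoxRA against Dox, 3 for SerumMinusWINDox over time and 0 for the difference of the RA responses between the Zglp1-/- clones and H18. With no minimum change, a rule that called 0.022% to 62.2% of all tested genes by comparison, the counts were 13 for B2RA in H18, 4 and 5 for B2RA in the Zglp1-/- clones against BMP2 and control, 14 for the Stra8-/- clones, 10 for BMSDox, 14 for DoxRA against Dox and 9 for DoxRA in OESko_A11. They were 20 for OESko_A11 against OE_A2, 21 for the Stra8-/- and 26 for the Zglp1-/- clones against H18, and over time 21 and 16 for B2RA in the Stra8-/- and Zglp1-/- clones, 13 for OESko_A11, 14 for SerumMinusWINDox, and 2, 5 and 7 for control in OE_A2, the Stra8-/- and the Zglp1-/- clones. The cause of these changes was not tested.

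Leaving out 1 library at a time gave 10 to 11 calls for Dox, 13 to 17 for DoxRA, 5 to 9 for DoxRA against Dox, 6 to 14 for SerumMinusWINDox, 2 to 8 for BMSDox and 0 to 0 for BMS or SerumMinusWIN alone. B2RA gave 2 to 11 in H18, 0 to 1 against BMP2 and 1 to 1 against control in the Zglp1-/- clones and 1 to 3 in the Stra8-/- clones, and DoxRA gave 1 to 2 in OESko_A11. Between lines the ranges were 12 to 15 (Zglp1-/- against H18), 6 to 11 (Stra8-/- against H18), 12 to 16 (OESko_A11 against OE_A2), 9 to 12 (difference of DoxRA responses) and 0 to 9 (difference of RA responses). Over time they were 0 to 2, 0 to 1 and 0 to 2 for control in OE_A2, the Zglp1-/- and the Stra8-/- clones, 1 to 2 and 3 to 3 for B2RA in those clones, 14 to 16 for H18, 2 to 6 for OESko_A11, 0 to 6 for BMSDox and 2 to 14 for SerumMinusWINDox. Aurkb for DoxRA against Dox ran from -2.29 without the second DoxRA library to 0.25 without the first.

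In the 2 comparisons whose same-numbered libraries deviated together in all 6 pairs of groups, a replicate block left the counts at 0 and 1. In the others correlations ran from -0.205 to 0.437, and some with 1 pair of groups passed 0.1 as well. The labels do not pair the numbers. The block moved only 1 count, the difference of RA responses, to 5. Of 81 named calls, 78 were kept with TMM factors, 75 with edgeR, 77 with a pseudocount of 5, 69 with only the groups compared, and all 81 with a pseudocount of 0.5, no filter or the block. Leaving out a library kept 377 of 422. Low levels limit Cdc25c and Aurkb with DoxRA, where 1 read is worth 0.289 or 0.797 RPM.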
